A study of Mus musculus with 24 samples.

Results

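Ddit4, Ddit4l, Sesn1, Sesn2 and Sesn3 are 5 of the 24015 gene symbols in the count table of mouse livers dosed with furan. They were chosen by name, as genes induced by stress whose proteins restrain the mTOR kinase, and they were selected with furan results of these livers already known. Their furan values are therefore a description. Calls of the main test are counted beside the share over all genes, and nothing is read from their number. No p of a furan contrast is printed for a member. The share of all genes whose groups do not overlap is not given, so nothing is read from overlap either. All 5 passed the low-count filter in each comparison.

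mTOR complex 1 is a kinase complex on the lysosome surface that promotes protein synthesis and restrains autophagy when growth factors and amino acids are plentiful. Ddit4 (also called REDD1) and its relative Ddit4l (REDD2) encode small proteins that lower its activity through the TSC1-TSC2 complex, which switches off the GTPase Rheb. The sestrins lower it through GATOR2, which controls the Rag GTPases, and Sesn2 is also a leucine sensor. In mammalian cells Ddit4 is known as a target of hypoxia, glucocorticoids, p53 and ATF4, Sesn1 as a target of p53, Sesn2 as a target of p53, ATF4 and NRF2, and Sesn3 as a target of FoxO factors. In liver, sestrins are also known for protection against oxidative damage.

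The treated groups were female B6C3F1 mice, a hybrid laboratory strain, gavaged for 21 days with corn oil that held furan, at a daily dose of 8 mg/kg body weight. Furan is a heterocyclic compound of heated food that is toxic to rodent liver. The control groups were females of the same strain, gavaged with corn oil and no furan. The age in the labels is 5 to 6 weeks, the age at purchase. All mice were anaesthetised with carbon dioxide 4 hours after the last dose. Each liver gave 3 pieces: one was snap frozen, one lay in formalin for 18 hours and one lay in formalin for 3 weeks before storage in paraffin (FFPE). Each treatment had 4 animals, furan animals 41, 42, 43 and 44 and control animals 2, 3, 4 and 6, so 24 libraries came from 8 animals. Frozen and fixed pieces were extracted with different kits, and fixation for 3 weeks went with 2 sections where 18 hours went with 1. Preservation, kit, input and the piece of liver thus cannot be told apart.

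Libraries held 38 to 49.3 megacounts (M) in frozen pieces, 22.9 to 28.1 M in FFPE 18 h pieces and 5.56 to 11 M in FFPE 3 weeks pieces. Levels are counts-per-million values (CPM), scaled by TMM factors over all libraries. The frozen library of control animal 3 stood apart, with a mean correlation of 0.961 with its own group, against 0.977 to 0.980 for the other frozen controls. The FFPE 3 weeks libraries correlated with their own groups at 0.862 to 0.872. Results that rest on control animal 3 are given with and without it, except the correlations between genes. The 6 hepatocyte markers had counts in all groups, and their summed level was 54189 CPM or more in each library.

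In frozen liver, Ddit4l averaged 3.98 ± 1.12 CPM with furan and 0.672 ± 0.468 CPM in controls (SD, n = 4 each), the largest ratio of means among the 5 genes, 5.92. Sesn2 averaged 10.4 ± 1.22 CPM with furan and 5.27 ± 2.19 CPM in controls, a ratio of 1.98. Ddit4 averaged 2.44 ± 0.557 CPM with furan and 1.63 ± 0.181 CPM in controls, and its groups overlapped. Sesn1 and Sesn3 had ratios of 0.914 and 0.998. The gene whose level stood highest relative to transcript length, Sesn1, was thus not among those with higher furan means.

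The promoter windows of the 3 genes with higher furan means are shown because these genes share that direction. Each holds 250 bases before and 50 bases after the RefSeq start site in build GRCm38.p6, read 5′ to 3′ on the gene's strand. Capitals mark the motif matches described below. The windows are chr3:137623422-137623721 on the plus strand for Ddit4l, chr4:132510407-132510706 on the minus strand for Sesn2 and chr10:59951721-59952020 on the minus strand for Ddit4.
Ddit4l: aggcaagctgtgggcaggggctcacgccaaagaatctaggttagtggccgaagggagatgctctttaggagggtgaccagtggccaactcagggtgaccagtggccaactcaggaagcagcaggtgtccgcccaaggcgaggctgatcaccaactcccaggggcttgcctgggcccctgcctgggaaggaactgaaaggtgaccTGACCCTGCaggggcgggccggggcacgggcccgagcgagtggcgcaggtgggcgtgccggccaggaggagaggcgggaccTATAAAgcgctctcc
Sesn2: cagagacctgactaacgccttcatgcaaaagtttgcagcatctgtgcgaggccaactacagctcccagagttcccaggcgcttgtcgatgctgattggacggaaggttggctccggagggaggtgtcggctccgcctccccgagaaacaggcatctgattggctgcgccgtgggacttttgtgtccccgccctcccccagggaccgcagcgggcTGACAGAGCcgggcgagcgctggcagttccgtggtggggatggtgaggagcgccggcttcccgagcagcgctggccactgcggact
Ddit4: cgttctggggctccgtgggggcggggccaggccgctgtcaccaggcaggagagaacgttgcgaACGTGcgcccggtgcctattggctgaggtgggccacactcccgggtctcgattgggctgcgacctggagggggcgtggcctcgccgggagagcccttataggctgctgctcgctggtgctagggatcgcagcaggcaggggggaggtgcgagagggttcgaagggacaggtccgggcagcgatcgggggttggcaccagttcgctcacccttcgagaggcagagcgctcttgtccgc
Motifs were searched on both strands. The antioxidant response element TGACNNNGC, the core bound by NRF2, began at -46 from the start site in Ddit4l and at -36 in Sesn2. These letters stood in 12.4% of the 32851 RefSeq promoter windows of the same length. The hypoxia core ACGTG, which lies within the E-box CACGTG, began at -187 in Ddit4 and stood in 19.6% of windows. Ddit4l also held the TATA box letters TATAAA at 35 past the start, found in 13.6% of windows. The FoxO motif GTAAACA (3.65% of windows) matched in 1 of the 2 Sesn1 windows, on the opposite strand, and not in the Sesn3 window. The E-box CACGTG (7.15%), the CHOP-ATF4 composite TGATGNAA (3.97%), the glucocorticoid half-site AGAACA (19%) and the p53 core pair, CATG then 6 bases then CATG (0.712%), were not found in the windows of the 5 genes. A match describes letters only, and these windows cover neither introns nor distal sites.

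Ddit4l, the REDD1 relative, had 3.87, 2.47, 4.57 and 5.02 CPM in the frozen livers of furan animals 41, 42, 43 and 44, against 1.01, 0, 0.967 and 0.707 CPM in control animals 2, 3, 4 and 6. All furan libraries lay above all controls. The furan values rest on 106 to 200 counts per library and the control values on 0 to 39. The library of control animal 3 had 0 of 37978435 counts. A count of 0 allows up to 3 counts, or 0.095 CPM, while 28.3 counts would be reached at the mean of the other controls (counting error only). Without that animal the ratio of means was 4.44, and the fitted log2 fold change was 2.14 in place of 2.54 ± 0.59 (SE).

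After 18 hours of formalin Ddit4l had 2.63, 2.54, 4.12 and 6.59 CPM with furan, against 1.04, 0.762, 1.89 and 1.43 CPM in controls. The groups again did not overlap, and the log2 fold change was 1.64 ± 0.35. In FFPE 3 weeks pieces it had 8.65, 4.63, 5.43 and 6.27 CPM with furan, against 1.60, 5.84, 0.257 and 2.26 CPM in controls. Here control animal 3 lay above furan animals 42 and 43, so the groups overlapped. The ratio of means was 2.51 with that animal and 4.56 without it, and the log2 fold change was 1.33 ± 0.75 with it and 2.18 without it. Control animal 3 was thus lowest of the controls in the frozen and 18 h pieces and highest in the 3 weeks piece.

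Ddit4l is known to be expressed in skeletal muscle, so the 5 skeletal muscle markers were summed in each library. In frozen pieces their sum was 0.349 to 0.499 CPM with furan and 0.443 to 1.15 CPM in controls, with 2 of the 5 markers at 0 in every furan library and 3 in every control library. After 18 hours it was 14.3 CPM in furan animal 44, whose Ddit4l level was the highest of its group, and at most 0.724 CPM in the other libraries. Without furan animal 44 the log2 fold change of Ddit4l in FFPE 18 h pieces was 1.27. Ddit4l was highest in furan animal 44 in frozen pieces too, at 5.02 CPM, where the marker sum of that animal was 0.427 CPM. After 3 weeks the sum was 197 CPM in furan animal 42, 92.4 CPM in control animal 3 and 37.6 CPM in control animal 6, and at most 1.5 CPM in the other libraries. Ddit4l at 3 weeks was lowest of its group in furan animal 42, at 4.63 CPM. Among the controls it was highest in animal 3, at 5.84 CPM, with animal 6 next, at 2.26 CPM. The part of the muscle signal in the Ddit4l levels was not tested.

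Ddit4, the stress-induced partner of the TSC1-TSC2 complex, had 2.67, 2.23, 3.07 and 1.78 CPM in frozen livers of furan animals, against 1.45, 1.84, 1.71 and 1.5 CPM in controls. Only furan animal 44 lay within the control range. The FFPE 18 h levels of Ddit4 were 2.80, 3.02, 3.70 and 3.16 CPM with furan, against 1.17, 1.90, 2.84 and 1.59 CPM in controls. Furan animal 41 fell just under control animal 4, and the other furan animals were above all controls. The FFPE 3 weeks levels were 1.68, 8.65, 4.31 and 5.44 CPM with furan, against 3.62, 2.75, 0 and 1.4 CPM in controls. The animal among the controls differed between pieces, 44 in frozen tissue and 41 in both fixed pieces, and 3 of 4 furan animals exceeded the highest control in each piece.

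The log2 fold changes of Ddit4 were 0.59 ± 0.24 in frozen, 0.76 ± 0.28 in FFPE 18 h and 1.37 ± 0.95 in FFPE 3 weeks pieces. Its counts were low, 71 to 117 with furan and 50 to 69 in controls in frozen pieces. At 3 weeks the coefficient of variation was 57.6% with furan and 81.6% in controls, where counting alone gives 14.4% and 21.2%. Control animal 4 had 0 of 6904786 counts there, which allows up to 0.385 CPM, while the mean of the other controls would give 20.2 counts.

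Sesn2, the leucine-sensing sestrin, had 11.6, 10.8, 10.5 and 8.74 CPM in frozen livers of furan animals, against 4.38, 8.52, 4.46 and 3.71 CPM in controls. The groups did not overlap, and control animal 3 came closest to them, just under furan animal 44. Without control animal 3 the control mean was 4.19 ± 0.411 CPM (SD, n = 3) and the ratio of means 2.49. In FFPE 18 h pieces Sesn2 had 12.6, 12.0, 13.1 and 12.1 CPM with furan, against 5.22, 3.54, 6.59 and 4.99 CPM in controls. This was the tightest group of the 5 genes: the coefficient of variation of the furan libraries was 4.27%, no larger than the 5.49% that counting gives.

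In FFPE 3 weeks pieces Sesn2 had 5.21, 9.73, 8.99 and 8.99 CPM with furan, against 7.91, 8.01, 6.55 and 1.18 CPM in controls. Furan animal 41 lay among the controls and the other furan animals above them. The log2 fold changes of Sesn2 were 0.99 ± 0.25 in frozen, 1.30 ± 0.16 in FFPE 18 h and 0.49 ± 0.53 in FFPE 3 weeks pieces. Without control animal 3 the frozen value was 1.31. The lowest FFPE 3 weeks control, animal 6, had 11 counts, and without it the value was 0.15.

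Sesn1, the sestrin first described as a p53 target, had 22, 20.2, 23.5 and 23.1 CPM in frozen livers of furan animals, against 23.6, 21.7, 26.6 and 25.2 CPM in controls. The groups overlapped, as they did after fixation. The group means were 16.8 ± 2.62 CPM with furan and 19.6 ± 1.4 CPM in controls in FFPE 18 h pieces, and 20.3 ± 4.52 and 19.4 ± 4.90 CPM in FFPE 3 weeks pieces (SD, n = 4). The log2 fold changes were -0.13 ± 0.12, -0.22 ± 0.12 and 0.07 ± 0.28 in frozen, FFPE 18 h and FFPE 3 weeks pieces.

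Sesn3, the FoxO-regulated sestrin, had 16.5, 20.9, 20.3 and 22.5 CPM in frozen livers of furan animals, against 21.9, 20.3, 17.2 and 21 CPM in controls. The groups overlapped, and the log2 fold change was 0.00 ± 0.13. FFPE 18 h pieces had 22.8 ± 2.94 CPM with furan and 22.6 ± 2.65 CPM in controls, with a log2 fold change of 0.02 ± 0.11. In FFPE 3 weeks pieces Sesn3 had 13.2, 15.9, 14.2 and 14 CPM with furan, against 19.1, 30, 16.2 and 19.1 CPM in controls. All furan libraries lay below all controls there, and the log2 fold change was -0.55 ± 0.29, or -0.32 without control animal 3.

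**Figure D1:**
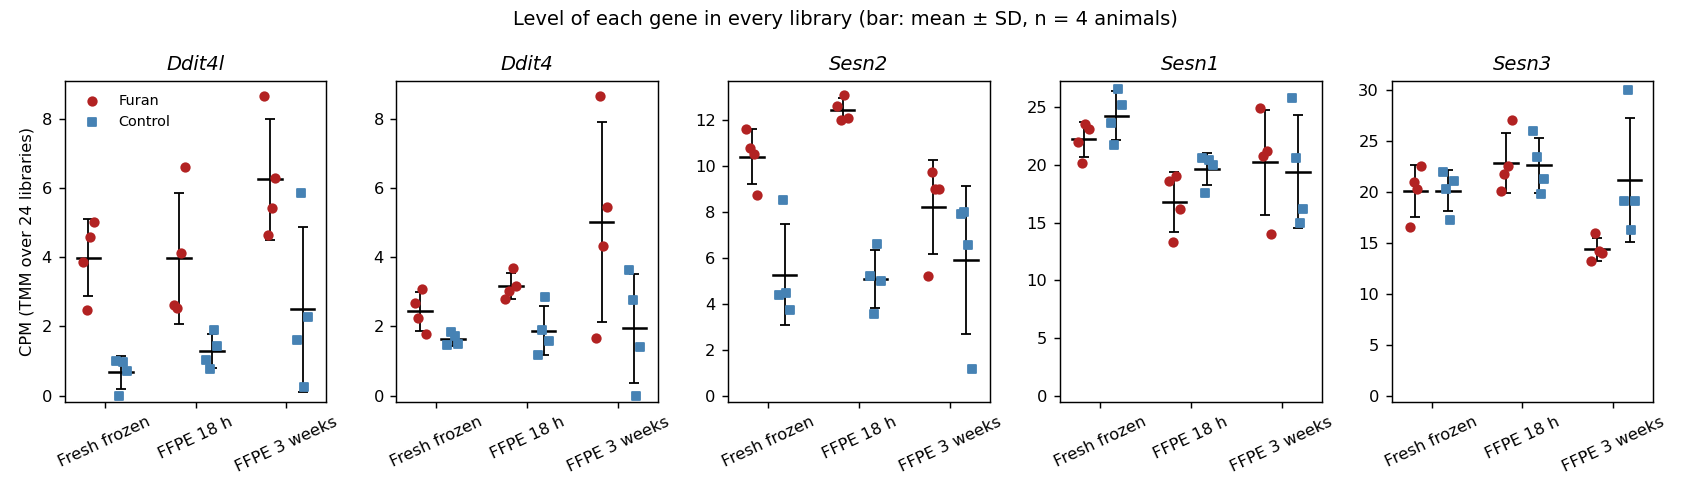
Level of each of the 5 genes (CPM, linear axis, 1 panel per gene) in every library, furan as circles left of control squares, by preservation; bars are the mean and SD of 4 animals. Ddit4l and Sesn2 do not overlap between treatments in frozen and FFPE 18 h pieces, and Sesn1 and Sesn3 overlap in both. The share of all genes that do not overlap is not given.

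A gene was called where the adjusted p of edgeR's quasi-likelihood test over all genes was below 0.05. Among the 5 genes, Ddit4l was called higher in frozen liver, Ddit4l and Sesn2 in FFPE 18 h pieces, and none in FFPE 3 weeks pieces; none was called lower. Over all genes tested in frozen liver, 1.57% were called higher and 1.2% lower. In FFPE 18 h pieces the shares were 7.82% higher and 7.72% lower, and in FFPE 3 weeks pieces 1.07% higher and 1.51% lower. At an unadjusted p below 0.05 the 5 genes gave 3, 3 and 0 calls in frozen, FFPE 18 h and FFPE 3 weeks pieces. Of all genes tested, 2593 of 14122, 4111 of 14204 and 1612 of 12983 passed that threshold in the same pieces. Among the 5 genes the DESeq2 test called 1, 3 and 0. No share over all genes stands beside the DESeq2 counts for furan against control, here or below, so nothing is read from them. The frozen call of Ddit4l was lost when any library but that of control animal 3 was left out. Without control animal 3, Sesn2 was called as well.

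**Figure D2:**
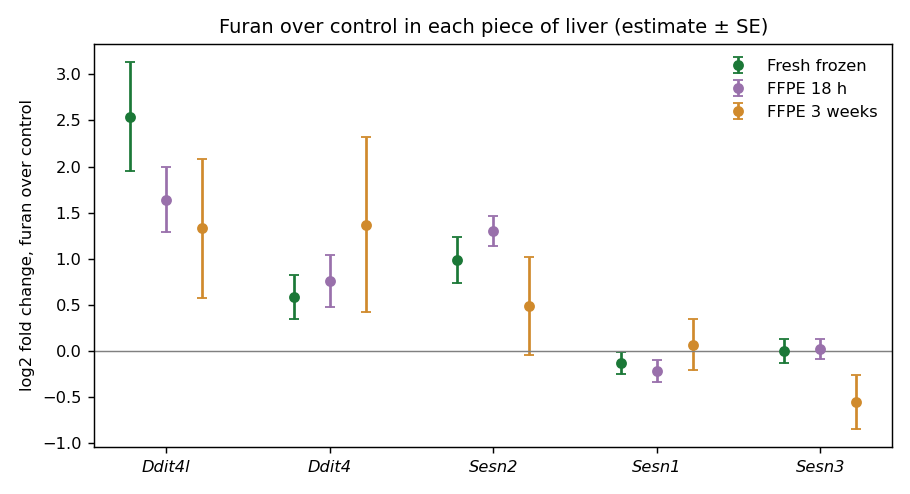
Log2 fold change of furan over control for the 5 genes (points, estimate; bars, SE; 4 animals per group), with a colour for each preservation. Ddit4l, Ddit4 and Sesn2 lie above 0 in every piece, and the bars are widest in FFPE 3 weeks pieces.

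The furan effects of 2 pieces were also compared directly, as an interaction. The fit had no animal block, so pieces of the same liver were treated as independent. None of the 5 genes was called in the 3 such comparisons with edgeR, where 0% of all genes were called (n = 14843, 14253 and 14414 genes). At an unadjusted p below 0.05, edgeR gave 239 genes for FFPE 18 h minus frozen, 585 for FFPE 3 weeks minus frozen and 766 for FFPE 3 weeks minus FFPE 18 h. DESeq2 called 0, 9 and 26 genes, none of the 5. For Ddit4l the furan effect in FFPE 18 h pieces minus that in frozen pieces was -0.88 ± 0.73 on the log2 scale, an interval of 2 SE from -2.34 to 0.58, and -1.85 after all libraries were thinned to the same depth. For Sesn2 it was 0.33 ± 0.30, from -0.28 to 0.94, with -0.13 without animal 3 and -0.06 after thinning. For Sesn3 the effect in FFPE 3 weeks minus that in FFPE 18 h pieces was -0.57 ± 0.27, from -1.12 to -0.03, or -0.36 without animal 3. The interval for Sesn2 in that comparison ran from -1.91 to 0.26. For Ddit4 in FFPE 3 weeks minus frozen pieces it ran from -1.25 to 2.78. These intervals hold the contrasts that chose the genes. They leave room for differences in effect of more than 1 log2 unit for Ddit4l, Ddit4, Sesn2 and Sesn3.

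Levels of different genes were compared per kb of RefSeq transcript, which was 1.755 kb for Ddit4, 2.722 for Ddit4l, 3.809 for Sesn1, 3.475 for Sesn2 and 9.125 for Sesn3. In frozen livers of furan animals the order of the level was Sesn1 (5.82 CPM per kb), Sesn2 (3.00), Sesn3 (2.2), Ddit4l (1.46) and Ddit4 (1.39). Sesn2, at 2.51 to 3.35, lay above Sesn3, at 1.81 to 2.47, while Ddit4l (0.907 to 1.85) and Ddit4 (1.02 to 1.75) did not differ beyond their spread. In frozen controls the order of the level was Sesn1 (6.37 CPM per kb), Sesn3 (2.2), Sesn2 (1.52), Ddit4 (0.926) and Ddit4l (0.247). The ranges of Sesn3 (1.89 to 2.40) and Sesn2 (1.07 to 2.45) overlapped through control animal 3. Sesn2 and Sesn3 thus stood in opposite order in furan and control livers.

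After 18 hours of formalin the order of the level per kb with furan was Sesn1 (4.40), Sesn2 (3.59), Sesn3 (2.50), Ddit4 (1.81) and Ddit4l (1.46). In controls it was Sesn1 (5.15), Sesn3 (2.48), Sesn2 (1.46), Ddit4 (1.07) and Ddit4l (0.471). The order of Sesn2 and Sesn3 differed between treatments as in frozen tissue. Lengths are those of an annotation of another build than the one counted on, and Sesn1 has 2 RefSeq transcripts.

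**Figure D3:**
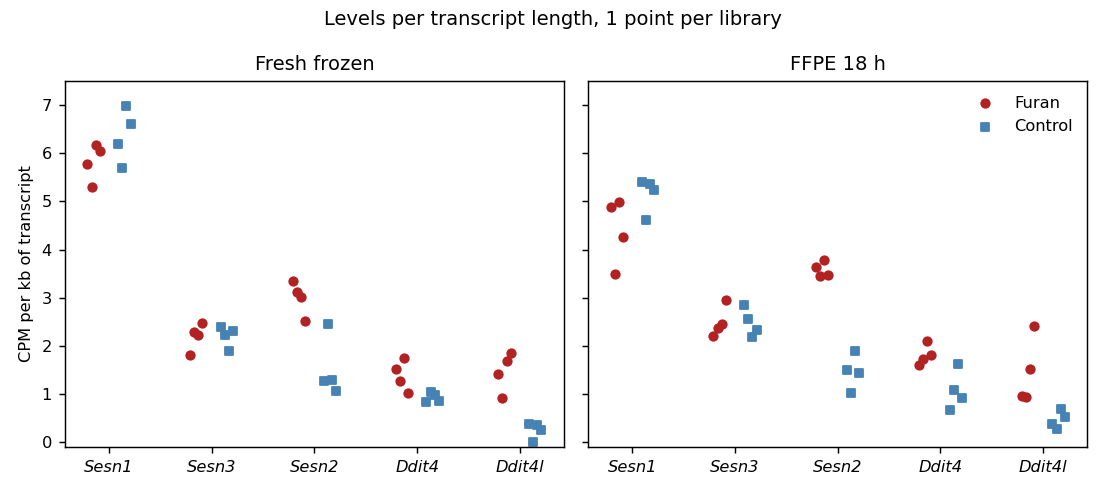
Level of each gene per kb of transcript (CPM per kb, linear axis, 1 point per library, 4 animals per group), furan circles left of control squares, in frozen and FFPE 18 h pieces. Sesn2 lies above Sesn3 in all furan libraries of both pieces and below it on average in controls.

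Since every liver was divided, the same animals can be followed across pieces by their number. Over all genes, deviations from group means correlated at 0.03 between the frozen and 18 h pieces of control animal 3. The highest value with another animal was 0.04. Between the fixed pieces the own number was not the highest for furan animal 42 (-0.01, against 0.11) and furan animal 44 (0.01, against 0.01). For Ddit4l the furan animals stood in the order 44, 43, 41 and 42 in both the frozen and the FFPE 18 h pieces, while at 3 weeks animal 41 was highest, at 8.65 CPM, and animal 42 lowest. For Sesn2, furan animal 41 was highest in the frozen piece at 11.6 CPM and lowest in the FFPE 3 weeks piece at 5.21 CPM. Control animal 3 was highest of the controls in the frozen piece at 8.52 CPM lowest in the FFPE 18 h piece at 3.54 CPM and again highest in the FFPE 3 weeks piece at 8.01 CPM. For Sesn2 the order of the animals thus differed between pieces.

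**Figure D4:**
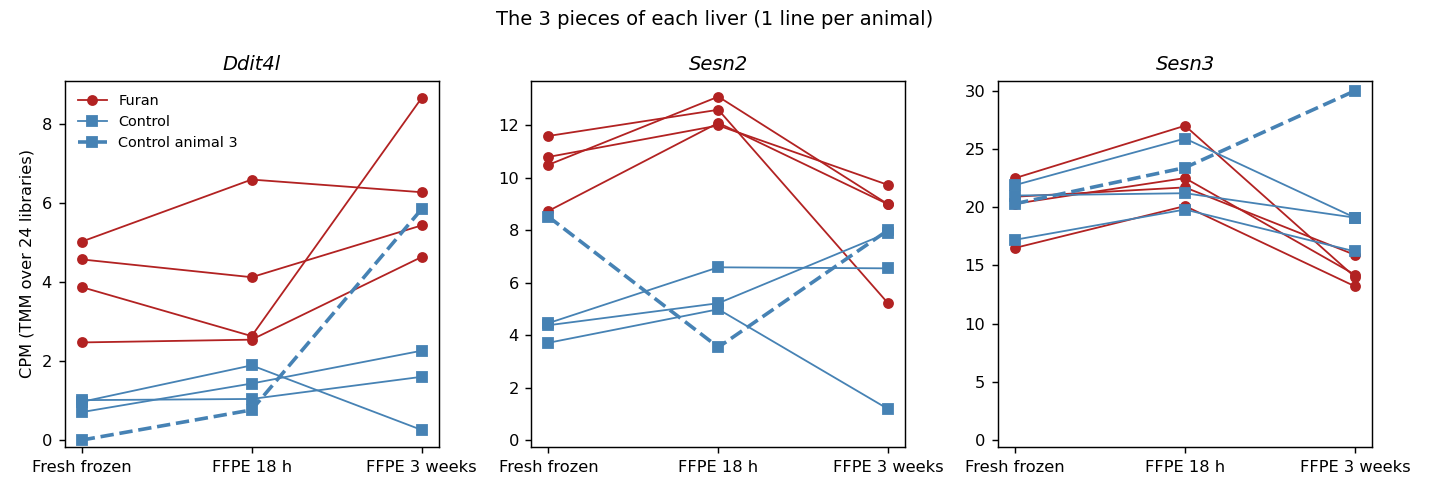
Levels of Ddit4l, Sesn2 and Sesn3 (CPM, linear axis) in the 3 pieces of each liver, 1 line per animal, with control animal 3 dashed. Furan and control lines stay apart for Ddit4l and Sesn2 in frozen and FFPE 18 h pieces and meet at 3 weeks.

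Which of the 5 genes kept their level after fixation was compared as the mean over both treatments, 8 libraries against 8, a measure that the choice of genes did not use. Sesn1 was lower in FFPE 18 h than in frozen pieces, by the group means given above, with a log2 difference of -0.36 ± 0.08 (edgeR adjusted p = 0.00119). Over all genes 26.6% were called higher and 27.3% lower in that comparison. The other 4 genes were not called: the log2 differences were 0.44 ± 0.37 for Ddit4l (adjusted p = 0.322), 0.29 ± 0.18 for Ddit4 (0.185), 0.10 ± 0.15 for Sesn2 (0.595) and 0.17 ± 0.09 for Sesn3 (0.109). With the animal as block Sesn3 was called higher, at 0.17 (adjusted p = 0.0353). Without animal 3 Sesn2 was called higher, at 0.33 (adjusted p = 0.0095).

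After 3 weeks of formalin Ddit4l was higher than in frozen pieces, with a log2 difference of 1.29 ± 0.53 (edgeR adjusted p = 0.0462), in a comparison where 23% of genes were called higher and 25.8% lower. This call ended with the animal as block (1.12, adjusted p = 0.19), and without animal 3 the difference was 0.65 (adjusted p = 0.202). The other 4 genes were not called, at 0.67 ± 0.50 for Ddit4 (adjusted p = 0.286), -0.21 ± 0.15 for Sesn1 (0.251), -0.07 ± 0.29 for Sesn2 (0.864) and -0.19 ± 0.15 for Sesn3 (0.313). Between the fixed pieces, 14.9% of genes were called higher at 3 weeks than at 18 hours and 17.5% lower. Sesn3 was among those lower, at -0.37 ± 0.14 (adjusted p = 0.0382), and lost the call with DESeq2 (-0.33, adjusted p = 0.0565). The others were not called, at 0.82 ± 0.43 for Ddit4l, 0.37 for Ddit4, 0.14 for Sesn1 and -0.18 for Sesn2. The summed hepatocyte markers also moved with preservation, at 160487 to 187539 CPM in frozen, 98292 to 114598 in FFPE 18 h and 54189 to 72107 in FFPE 3 weeks libraries, and their part in these differences was not tested. Other marker sums moved as well. The 4 smooth muscle markers summed to 7.39 to 12.9 CPM in frozen, 29.9 to 63 CPM in FFPE 18 h and 10 to 56.8 CPM in FFPE 3 weeks libraries. The 5 Kupffer cell markers summed to 322 to 673, 176 to 374 and 173 to 373 CPM in the same order, and their part was not tested either.

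The genes on which the 5 act were examined in 5 lists of the mTOR pathway, 75 genes in all. These lists, like those below, were chosen with earlier results of these data known, so their counts are a description. In frozen liver edgeR called 1 higher with furan and 0 lower, or 1.33% higher where 1.57% of all genes were (median log2 fold change -0.01, as for all genes tested). At an unadjusted p below 0.05 the counts were 8 and 6, where 2593 of all 14122 genes tested passed in either direction. The DESeq2 test called 3 and 3 of the pathway genes. The gene called by edgeR was Sec13, a subunit of GATOR2 and of the COPII coat, at 67.2 ± 5.46 CPM with furan and 44.8 ± 6.89 CPM in controls (log2 fold change 0.58 ± 0.13, edgeR adjusted p = 0.0391). The call of Sec13 was lost without any 1 of the 4 furan libraries, and 5 pathway genes were called without control animal 3. In FFPE 18 h pieces 5 of 74 tested were higher and 5 lower (median 0.03, against -0.00 for all genes). That is 6.76% in each direction, near the 7.82% higher and 7.72% lower over all genes. In 1 fit over all 24 libraries none of these 10 calls was made. After 3 weeks, 1 of 73 was higher and 0 lower (median 0.08, against 0.01 for all genes), with 8 and 3 at an unadjusted p below 0.05 in edgeR and 1 and 1 called by DESeq2. Of all genes tested there, 1.07% were called higher and 1.51% lower, and 1612 of 12983 passed the unadjusted threshold.

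By role, the FFPE 18 h calls, which the fit over all libraries did not make, were spread over the lists as follows. The mTOR complex subunits held 1 gene higher of 11: Rictor, the scaffold of complex 2, at 0.24 ± 0.06 (adjusted p = 0.0157). Of the 5 genes of the TSC-Rheb arm, on which Ddit4 acts, Tsc1 was lower in those pieces, at -0.30 ± 0.08 (adjusted p = 0.0123). Of 25 genes of the GATOR-Rag arm, on which sestrins act, Sec13 was higher at 0.34 ± 0.09 (adjusted p = 0.014). Flcn and Fnip1, which form a GTPase-activating complex for the Rag proteins, were lower at -0.31 ± 0.08 and -0.40 ± 0.07 (adjusted p = 0.0117 and 0.000747).

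Of 19 genes of the AMPK and insulin-Akt input, Irs1, an insulin receptor substrate, was higher in FFPE 18 h and FFPE 3 weeks pieces, at 0.42 ± 0.08 and 0.50 ± 0.11 (adjusted p = 0.00288 and 0.00692). In frozen pieces it was 0.39 ± 0.15 (adjusted p = 0.217). Stk11, the kinase LKB1 that activates AMPK, was lower in FFPE 18 h pieces, at -0.30 ± 0.07 (adjusted p = 0.00926). Of 14 substrates and outputs, the cap-binding factor Eif4e and the mRNA-binding Larp1 were higher there, at 0.44 ± 0.10 and 0.23 ± 0.06 (adjusted p = 0.00685 and 0.0159). Tfeb, the transcription factor of lysosome genes, was lower at -0.67 ± 0.16 (adjusted p = 0.00963). These are transcript levels, and mTOR activity itself was not measured.

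**Figure D5:**
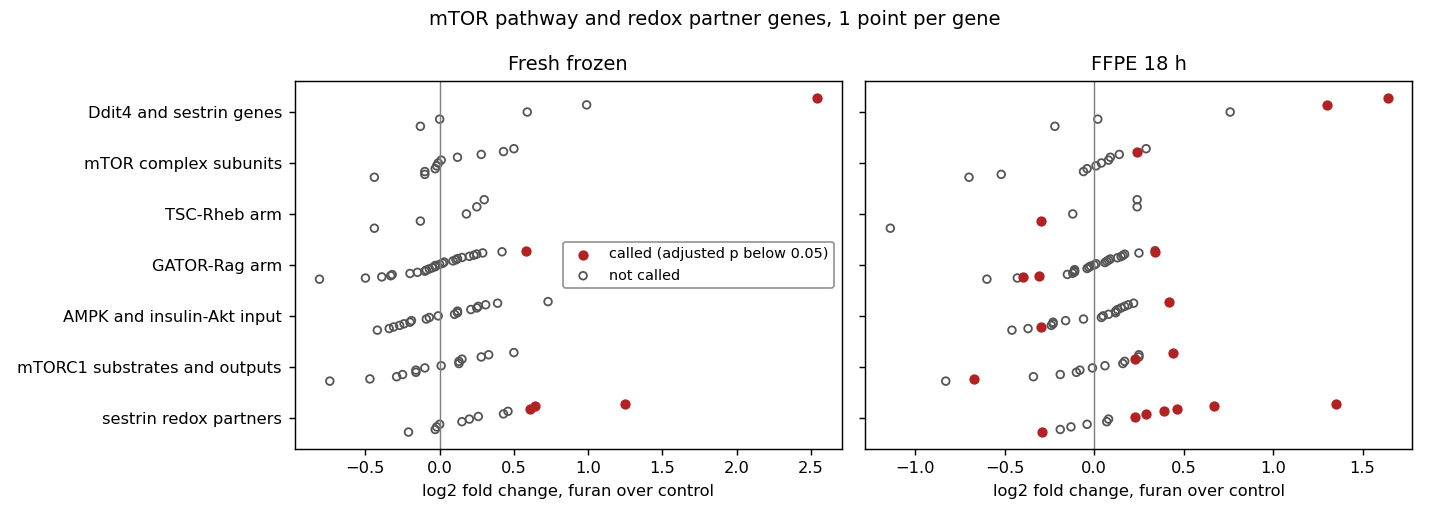
Log2 fold change of furan over control for each gene of the mTOR pathway and redox lists (1 point per gene, 4 animals per group) in frozen and FFPE 18 h pieces; filled points were called at an adjusted p below 0.05. Most pathway genes lie within 0.5 of 0. Ddit4l, Sesn2 and Srxn1 lie furthest to the right in both panels, and Sesn1 and Sesn3 lie near 0. In frozen pieces Ddit4, at 0.59, lies among pathway and redox genes such as Prkab2 (0.73) and Txnrd1 (0.64).

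Sestrins are also known to act on the peroxiredoxin system and on the NRF2 inhibitor Keap1. Of 12 genes of that system, 3 were higher and 0 lower with furan in frozen liver, 6 and 1 in FFPE 18 h pieces, and 2 and 0 in FFPE 3 weeks pieces, with medians of 0.23, 0.16 and 0.15. The shares higher were 25%, 50% and 16.7%, where 1.57%, 7.82% and 1.07% of all genes were called higher in the same pieces. Srxn1, the sulfiredoxin that repairs overoxidised peroxiredoxins, averaged 86.7 ± 16.3 CPM with furan and 36.5 ± 2.68 CPM in frozen controls, a log2 fold change of 1.25 ± 0.15 (adjusted p = 0.00184). It was called in the other pieces too, at 1.35 ± 0.09 and 1.48 ± 0.21. Txnrd1, thioredoxin reductase, was called in all 3 pieces, at 0.64 ± 0.09, 0.67 ± 0.06 and 0.83 ± 0.13. Nfe2l2, which encodes NRF2, was called in frozen and FFPE 18 h pieces, at 0.61 ± 0.14 and 0.46 ± 0.08 (adjusted p = 0.0436 and 0.000913). The peroxiredoxin genes differed in direction in FFPE 18 h pieces, with Prdx3 at 0.39 ± 0.07 and Prdx5 at -0.29 ± 0.07 (adjusted p = 0.000831 and 0.0111).

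Genes known to share inducers with the 5 were counted in 6 further lists, to be read beside the 1.57%, 7.82% and 1.07% of all genes called higher and the 1.2%, 7.72% and 1.51% called lower in frozen, FFPE 18 h and FFPE 3 weeks pieces. The lists were chosen with earlier results of these data known, so their counts and adjusted p values are a description. Of 20 p53 targets, 14 were higher with furan in frozen liver, 15 in FFPE 18 h and 7 in FFPE 3 weeks pieces. None was lower, and the medians were 1.23, 1.08 and 1.25. No p53 target was lower at an unadjusted p below 0.05 in edgeR or called lower by DESeq2 either. Of all genes tested, 2593 of 14122, 4111 of 14204 and 1612 of 12983 passed that unadjusted threshold in the 3 pieces, in either direction. Cdkn1a, the cell cycle inhibitor p21, averaged 13.9 ± 2.19 CPM with furan and 0.651 ± 0.3 CPM in frozen controls (log2 fold change 4.40 ± 0.29, adjusted p = 5.19e-05). Ccng1, Zmat3 and Trp53inp1 were also called in each piece, at 1.38 ± 0.15, 1.68 ± 0.24 and 1.20 ± 0.20 in frozen liver. Sesn1, itself a known p53 target, did not share that direction in frozen or FFPE 18 h pieces by the values above.

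NRF2 targets were higher in 7 of 11 tested genes in frozen liver, 11 of 12 in FFPE 18 h and 6 of 11 in FFPE 3 weeks pieces, and lower in 0, also by DESeq2 and at an unadjusted p below 0.05 in edgeR. Ephx1, microsomal epoxide hydrolase, was called in each piece, at 1.05 ± 0.13, 1.15 ± 0.08 and 0.98 ± 0.12. Nqo1, a quinone reductase, was called in frozen and FFPE 18 h pieces, at 1.21 ± 0.16 and 1.25 ± 0.13. Srxn1 and Txnrd1 stand in this list as well as in the redox list.

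ATF4 targets gave 3 higher and 1 lower of 12 in frozen liver, 3 and 1 of 13 in FFPE 18 h and 1 and 0 of 12 in FFPE 3 weeks pieces. The DESeq2 test called 3 and 2, 3 and 1, and 0 and 0. Atf3, a stress-induced transcription factor, was called in frozen and FFPE 18 h pieces at 2.57 ± 0.36 and 2.18 ± 0.24, and Atf4 itself at 0.54 ± 0.09 and 0.57 ± 0.07. Trib3, a pseudokinase induced by ATF4, was lower, at -1.12 ± 0.23 and -1.09 ± 0.28. The cystine carrier Slc7a11, also an NRF2 target, was higher in both fixed pieces, with 0.74 ± 0.226 CPM with furan and 0.0729 ± 0.0525 CPM in controls at 18 hours. At 3 weeks it had 4.48 ± 2.49 CPM with furan and was at 0 in the 4 control libraries. DESeq2 gave this gene no adjusted p in either fixed piece.

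Hypoxia-inducible genes gave 0 calls of 13 in frozen liver with edgeR (4 higher and 0 lower at an unadjusted p below 0.05, 1 higher by DESeq2), 3 higher and 1 lower of 13 in FFPE 18 h, and 0 and 1 of 12 in FFPE 3 weeks pieces. Glucocorticoid-inducible genes gave 0 of 11 in frozen and FFPE 18 h pieces (1 higher in each at an unadjusted p below 0.05 in edgeR, 0 and 1 by DESeq2) and 1 lower at 3 weeks. FoxO targets gave 0 of 12 in frozen liver (3 higher and 2 lower at an unadjusted p below 0.05 in edgeR, 1 and 1 by DESeq2), 2 lower in FFPE 18 h, and 1 higher and 2 lower in FFPE 3 weeks pieces. Klf15, a fasting-induced transcription factor, was -0.59 ± 0.08 and -0.58 ± 0.16 in the fixed pieces (adjusted p = 8.6e-05 and 0.0375), and Pck1, the gluconeogenic enzyme PEPCK, -0.39 ± 0.12 and -0.34 ± 0.09 (0.0443 and 0.0277).

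The genes whose levels ran most like each of the 5 were ranked among 14901 genes by Pearson's r over the 24 libraries, after the mean of each preservation was taken off. The 24 libraries are pieces of 8 animals and share the furan contrast, so r is a description. Ddit4l was most like Rps27l (0.92), a ribosomal protein paralogue known as a p53 target, then Cul3 (0.91), a scaffold of ubiquitin ligases that pairs with Keap1, and Vapa (0.90), a membrane anchor of the endoplasmic reticulum. Over the 16 libraries without FFPE 3 weeks these were 0.93, 0.91 and 0.92. Both sets hold the frozen library of control animal 3, where Ddit4l was at 0, and r without it is not given. The SDs of Rps27l, Cul3 and Vapa were 23.5, 24.6 and 31.6 CPM in frozen controls. In FFPE 18 h controls they were 1.11, 2.91 and 3.52 CPM, so these r may rest largely on that library. Sesn2 was most like Tmed9 (0.88), a cargo receptor of the secretory pathway, Slc6a8 (0.87), a creatine carrier, and Eif3c (0.86), a translation initiation factor subunit, with 0.82, 0.83 and 0.91 over the 16.

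For the other 3 genes r over the 16 libraries ran from 0.26 to 0.85. Ddit4 was most like Nhp2 (0.92), a protein of box H/ACA ribonucleoproteins, Fkbp11 (0.92) and Spdya (0.92), with 0.85, 0.42 and 0.35 over the 16. Sesn1 was most like Mup1 (0.81), Clybl (0.79) and 1110002L01Rik (0.79), with 0.54, 0.75 and 0.29. Mup1 belongs to a multigene family whose reads may be shared between copies, so its values are uncertain. Sesn3 was most like BC028528 (0.77), Serpinb1a (0.77) and Tspyl4 (0.76), with 0.55, 0.26 and 0.59.

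Among markers of other liver cells, the sum of the 5 sinusoidal endothelial markers moved with furan. It was 377 to 413 CPM with furan and 482 to 580 CPM in controls in frozen pieces, and 384 to 412 and 490 to 497 CPM in FFPE 18 h pieces. In FFPE 3 weeks pieces the groups overlapped, at 330 to 394 and 392 to 431 CPM. In bulk tissue fewer such cells and less RNA per cell cannot be told apart, and the part of this in the levels of the 5 genes was not tested. Of the 5 markers, 1, 4 and 0 were called lower in frozen, FFPE 18 h and FFPE 3 weeks pieces, and 0 higher. Over all genes 1.2%, 7.72% and 1.51% were called lower. Stab2 was called in frozen and FFPE 18 h pieces. Lyve1 averaged 12.6 ± 0.881 CPM with furan and 11.8 ± 2.3 CPM in controls at 18 hours. The 5 Kupffer cell markers summed to 333 to 364 CPM with furan and 322 to 673 CPM in controls in frozen pieces, with control animal 4 highest. Stellate, bile duct and lymphocyte marker sums overlapped between treatments in frozen pieces. The erythroid markers Hba-a1 and Hbb-b1 were at 0 in all libraries, and the 3 adipocyte markers summed to 3.24 CPM or less. Of the 6 hepatocyte markers, 1, 3 and 2 were called lower with furan in frozen, FFPE 18 h and FFPE 3 weeks pieces, and 0 higher. Cyp2e1 was lower in all 3 pieces, at 7001 ± 366 CPM with furan and 11496 ± 1520 CPM in frozen controls. Serpina1c was lower in both fixed pieces, at 710 ± 34.1 and 933 ± 61.2 CPM at 18 hours. Alb was not called in frozen liver, at 144842 ± 8055 CPM with furan and 132503 ± 9109 CPM in controls. The summed hepatocyte markers overlapped between treatments in frozen pieces, at 167083 to 187539 CPM with furan and 160487 to 183397 CPM in controls. They overlapped in FFPE 18 h pieces too, at 98292 to 114598 and 100049 to 106966 CPM, and in FFPE 3 weeks pieces, at 54189 to 68201 and 64898 to 72107 CPM.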

How the data were processed

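Total RNA of 24 liver pieces was depleted of ribosomal RNA and sequenced, per the labels' protocols (TruSeq Total RNA kit). The deposited values are raw counts per gene symbol, whole numbers with a different total in each library. CASAVA 1.8.2, STAR 2.3.0, featureCounts 1.4.4 and build mm9 are named in the submitters' processing notes. Gene models, strand and the treatment of multimapping reads are not given in the sources used here, so overlapping or antisense genes could share reads. Of 24015 symbols, 4185 had no count. Samples were grouped by treatment and preservation from their titles.

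Counts were tested with edgeR 4.0.16 in R 4.3.3 (TMM, filterByExpr, robust dispersion, quasi-likelihood test, two-sided, Benjamini-Hochberg over all genes tested, call at an adjusted p below 0.05). Each preservation had its own fit of furan against control, 4 animals against 4. Preservations were compared over both treatments, 8 libraries against 8, without the animal as block unless stated. Each SE was obtained from the estimate and its F statistic. The members, gene lists and tests were chosen with earlier results of these data known. Within each list, up to 4 genes called the same way in at least 2 pieces were named; genes called in 1 piece and named beside them were chosen after their values were seen. Promoter windows are RefSeq's, build GRCm38.p6. Transcript lengths come from GENCODE models of GRCm38 linked to RefSeq.

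The animal numbers pair the libraries, because each liver was divided. Deviations from group means correlated between pieces of an animal at 0.03 to 0.25 for FFPE 18 h and frozen, 0.02 to 0.09 for FFPE 3 weeks and frozen, and -0.01 to 0.08 for the fixed pieces, and were highest with the own number in 7, 8 and 6 of 8 animals. Alternatives were DESeq2 size factors, the DESeq2 1.42.0 test, no low-count filter, thinning to 5560002 counts (seed 1), 1 fit over all libraries, the animal as block and leaving out each library or animal. The fits were tested on simulated data. Castor1, Castor2, Bmt2 and Adgre1 of the lists had no row of that name.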

Additional observations from a re-analysis of the deposited data

Results flagged for a closer look

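The level of each of the 5 genes was checked in each group of 4 animals, 30 groups in all, for a sample whose gap to its nearest neighbour exceeds Dixon's 95% critical value for 4 samples as a share of the range. Chance flags about 1 in 20 groups. Sesn2 in the frozen library of control animal 3, at 8.52 CPM, had a gap share of 0.844. The same library had no Ddit4l count and stood apart from its group over all genes, while the 18 h piece of that liver had the lowest Sesn2 level of its group. Sesn2 in the FFPE 3 weeks library of furan animal 41, at 5.21 CPM, had a gap share of 0.836, with the frozen piece of that liver the highest of its group.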

How the results depend on the processing

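Of 584 single-gene values under alternatives, 551 kept their direction and their side of the threshold, 4 gained a call, 15 lost one, 13 changed sign and 1 moved. None of the 13 was called. Calls among the 5 genes with furan in frozen liver were 1 as reported, 2 without the low-count filter, 2 after thinning, and 0 to 2 when a library was left out. In FFPE 18 h pieces they were 2, with 1 after thinning, 1 in 1 fit over all libraries and 2 to 3 with a library left out. In FFPE 3 weeks pieces they were 0, with 1 (Sesn3, lower) in the fit over all libraries and 0 with any library left out. Pathway calls were 1 in frozen liver (DESeq2 6, thinned 0, 0 to 5 with a library left out, 5 without control animal 3), 10 in FFPE 18 h pieces (0 in the fit over all libraries, 8 to 12 with a library left out) and 1 in FFPE 3 weeks pieces (no filter 2, DESeq2 2, fit over all libraries 8, 1 to 2 with a library left out). The share over all genes under each alternative is not given, and the cause of these shifts was not tested.

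For preservation, calls among the 5 were 1 for FFPE 18 h against frozen (2 after thinning, 2 with the replicate block, 1 to 2 with an animal left out), 1 for FFPE 3 weeks against frozen (0 with the block, 0 to 1 with an animal left out) and 1 for FFPE 3 weeks against FFPE 18 h (0 with DESeq2 size factors, 0 with the DESeq2 test, 0 to 1 with an animal left out). Thinning gave Sesn3 0.27 (adjusted p = 0.0303) at 18 h against frozen, and without animal 4 Ddit4l was called higher at 3 weeks than at 18 h (1.13, adjusted p = 0.0303). The replicate block changed no other call. No share over all genes is given for these alternatives either.

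Signs changed for Sesn2 at 18 h against frozen without animal 4 (-0.01 to 0.33 over the animals left out) and at 3 weeks against frozen without animal 41 or 6 (-0.23 to 0.04). For furan effects at 18 h minus frozen they changed after thinning for Sesn1 (0.14) and Sesn2 (-0.06), without animal 3 for Sesn2 (-0.13 to 0.54) and without animal 6 for Sesn3 (-0.01 to 0.08). For 3 weeks minus frozen Ddit4l changed sign without animal 3 (-1.83 to 0.04). For 3 weeks minus 18 h Ddit4 changed sign without animal 4 (-0.08 to 1.22), and Ddit4l was 0.32 thinned, 0.16 with the replicate block and above 0 without animal 44 or 3 (-0.93 to 0.73). Ddit4 and Ddit4l had 0 to 98 counts per FFPE 3 weeks library, and their spread there was wider than counting gives.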
